A study of Mus musculus with 23 samples.

Results

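The 33 genes described here make, regulate and move cholesterol. They were chosen by name as genes of this pathway, and all 33 were found among the 39017 genes counted. The set holds 19 genes of synthesis (7 of the mevalonate steps and 12 of the sterol steps), 5 genes of SREBP control, 2 genes of transport and storage, 6 genes of LXR signalling and efflux, and 1 gene of turnover. Msmo1 was listed under its older symbol Sc4mol and was matched by its Ensembl gene identifier.

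The series measured total RNA, depleted of ribosomal RNA, from the cortex of 22 mice that were wild type (WT) or carried a substitution at glycine 34 of the histone variant H3.3 in the gene H3f3a. At 10 weeks of age there were 3 G34R, 3 G34V, 2 G34W and 6 WT animals, and at postnatal day 7 there were 4 G34R and 4 WT animals. The labels give WT as +/+ and each mutant as heterozygous (G34R/+, G34V/+ and G34W/+), so the other H3f3a allele was wild type in every mutant group, and they give G34V and G34W at 10 weeks only. The animals at 10 weeks were labelled male except for 1 female of G34W, and each genotype at day 7 held 2 males and 2 females. The RNA came from pulverized cortex, in which fewer cells of a type and less RNA per cell cannot be told apart.

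Brain cholesterol is made within the brain, because lipoproteins do not cross the blood-brain barrier, and most of it ends up in myelin. The SREBP transcription factors, held in the endoplasmic reticulum by the sensors Scap and Insig when sterol is plentiful, switch on the enzymes of synthesis when sterol is scarce. The LXR nuclear receptors answer oxysterols by switching on the pumps that export cholesterol.

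Total counts ran from 28.4 M to 90.1 M per library over 23 libraries, of which 2 came from 1 WT animal at 10 weeks and were summed. The libraries at 10 weeks were divided into 2 sets at a mitochondrial share of 1.1%, a cut chosen after seeing the data. Mitochondrial protein-coding genes took 0.89% to 1.03% of counts in all G34R libraries and 3 WT libraries, and 1.12% to 1.36% in all G34V and G34W libraries and 4 WT libraries. The 2 libraries of the twice-sequenced WT animal fell 1 in each set, and for the members the log2 ratio between them had a median size of 0.1 and a largest size of 0.38. Each mutant group lay wholly in 1 set, so that a direct difference between G34R and the other mutants cannot be told apart from the sets without the WT libraries. In WT 5 members did not overlap between the sets (Hsd17b7, Stard4, Abca1, Mylip and Cyp46a1), and values within a set are given beside them. The share of all genes that did so was not computed, so the count is not read as a result about these members. The summed level of 9 neuronal markers was 6291 to 6383 CPM in G34R, 6098 to 6669 CPM in G34V and 6057 and 6903 CPM in G34W, against 6435 to 7407 CPM in WT at 10 weeks, where CPM are counts per M counts on 1 scale over all animals.

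The promoters of 5 members are shown because the main results turn on these genes: Hmgcs1, Msmo1 and Cyp51 among the enzymes, Insig1 as the sensor that fell in all 3 mutant groups, and Abca1 as the pump that rose in G34W. Each is the stretch of 250 bases before the RefSeq start on GRCm38.p6, from 5′ to 3′ on the strand of the gene. Capitals mark CCAAT (the box bound by NF-Y, written ATTGG where it lies on the other strand), CACGTG (the E-box) and TCACNCCAC (a sterol regulatory element). The windows were chr13:119690101-119690350 on the plus strand for Hmgcs1, chr5:28071162-28071411 on the plus strand for Insig1, chr8:64733579-64733828 on the minus strand for Msmo1, chr5:4104698-4104947 on the minus strand for Cyp51 and chr4:53159896-53160145 on the minus strand for Abca1.
Hmgcs1: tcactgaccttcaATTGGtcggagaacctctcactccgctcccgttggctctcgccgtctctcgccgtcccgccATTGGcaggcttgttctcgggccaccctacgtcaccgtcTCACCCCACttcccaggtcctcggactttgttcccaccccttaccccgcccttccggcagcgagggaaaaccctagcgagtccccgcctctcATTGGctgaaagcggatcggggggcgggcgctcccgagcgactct
Msmo1: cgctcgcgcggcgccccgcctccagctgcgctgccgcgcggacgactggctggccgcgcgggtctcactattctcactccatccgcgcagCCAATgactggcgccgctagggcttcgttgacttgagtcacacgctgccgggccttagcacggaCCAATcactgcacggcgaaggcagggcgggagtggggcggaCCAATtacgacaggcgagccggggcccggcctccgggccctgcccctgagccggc
Cyp51: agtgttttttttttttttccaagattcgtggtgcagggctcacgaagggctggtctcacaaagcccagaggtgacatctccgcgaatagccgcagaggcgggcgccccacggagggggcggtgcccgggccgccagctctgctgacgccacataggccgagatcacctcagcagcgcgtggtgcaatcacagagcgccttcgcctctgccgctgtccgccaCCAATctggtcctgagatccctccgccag
Insig1: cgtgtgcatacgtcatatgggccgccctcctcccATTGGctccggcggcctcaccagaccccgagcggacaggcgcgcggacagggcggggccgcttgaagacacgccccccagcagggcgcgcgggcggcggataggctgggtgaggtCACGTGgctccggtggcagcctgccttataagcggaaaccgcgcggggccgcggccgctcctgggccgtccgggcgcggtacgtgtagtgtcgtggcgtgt
Abca1: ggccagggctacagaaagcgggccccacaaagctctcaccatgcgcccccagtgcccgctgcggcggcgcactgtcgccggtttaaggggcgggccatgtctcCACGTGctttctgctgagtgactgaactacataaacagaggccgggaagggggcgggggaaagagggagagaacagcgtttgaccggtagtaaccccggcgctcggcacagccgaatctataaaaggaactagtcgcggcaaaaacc

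RefSeq windows from 250 bases before to 50 bases after the start were found for 27 of the 33 members and were searched on both strands, and the listed motifs do not overlap in the windows printed. CCAAT stood in 22 of these 27 (81.5%), against 41.1% of all 27025 genes with a window. It was in 15 of 16 synthesis genes and in 1 of 4 LXR and efflux genes. The element TCACNCCAC was in 1 of 27 members, Hmgcs1, between 137 and 129 bases before the start, against 1.44% of all genes. CACGTG was in 6 of 27 members (22.2%), Insig1 and Abca1 included, against 8.09% of all genes, and the LXR direct repeat was in 0 of 27 members and in 4 genes in all. A match is a description of these letters and not a binding site.

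At 10 weeks part of the cholesterol synthesis genes fell in G34R cortex, and over all animals no gene of efflux passed, although Abca1 passed within 1 of the library sets. By the quasi-likelihood test of edgeR, with p-values adjusted over 21288 genes after Benjamini and Hochberg and a threshold of 0.05, 8 of 33 members fell and 0 rose in G34R against WT, where 2.63% of all genes fell and 2.92% rose. The 8 were the enzymes Hmgcs1, Cyp51, Msmo1, Fdft1, Lss and Sqle, the sensor Insig1 and the carrier Stard4. Without G34R replicate 1 the count was 5, with Insig1, Lss and Sqle no longer past the threshold. All G34R animals lay below all WT animals for 12 members and above them for 0, where 6.06% of all genes lay below and 6.15% above. Of the 19 synthesis genes 6 fell, 17 had a log2 fold change below 0, and their median was -0.21, against -0.00 for all genes. Of the 6 LXR and efflux genes 0 passed the test, 4 were above 0, and their median was 0.08.

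**Figure D1:**
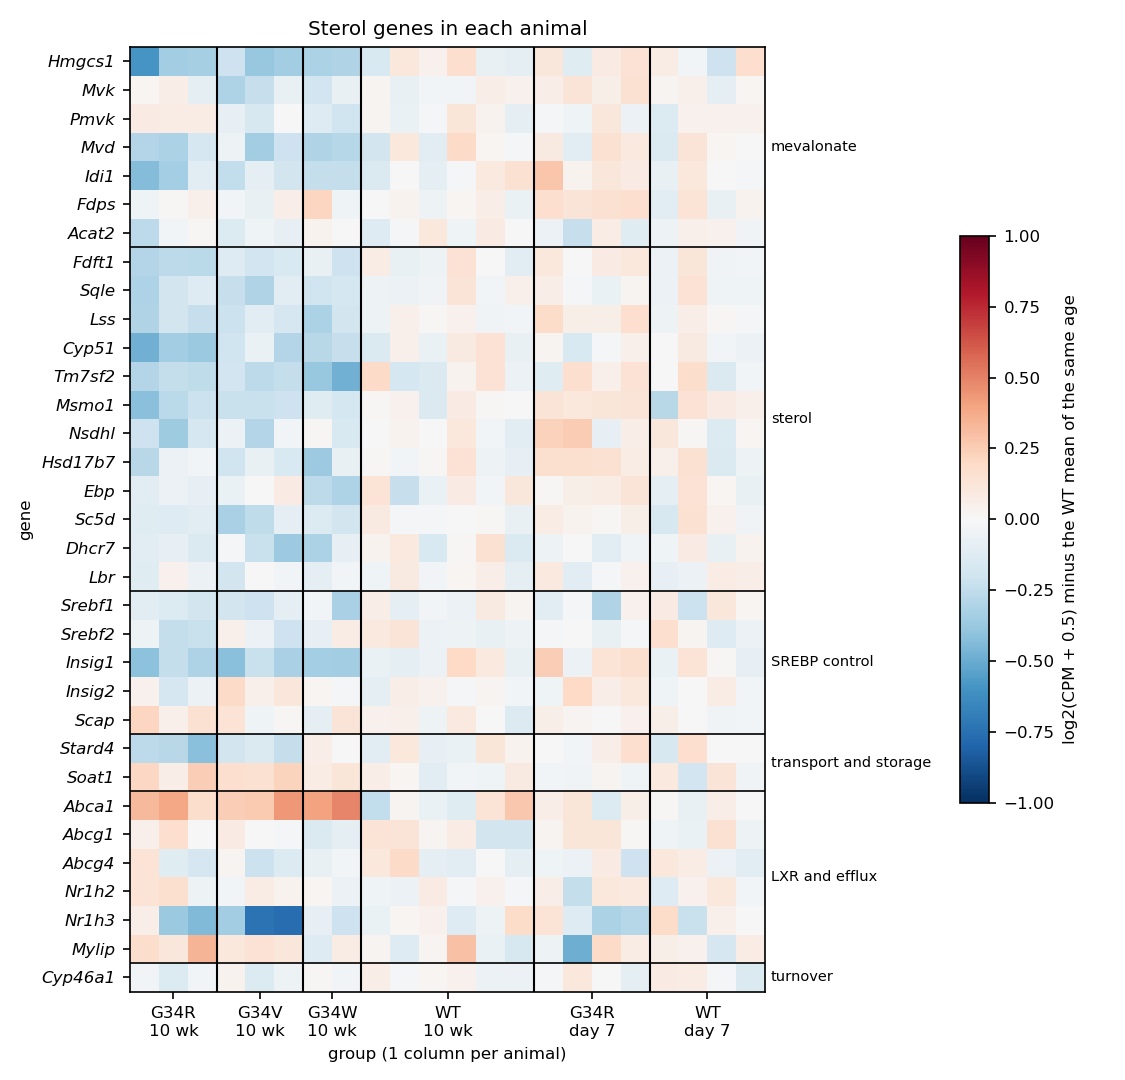
Sterol genes in each of 22 animals, as the difference of log2(CPM + 0.5) from the mean of the WT animals of the same age (blue lower, red higher), with 1 column per animal and the genes ordered by role. The synthesis rows are mostly blue in the 8 mutant animals at 10 weeks and not at day 7, and Abca1 is red in all 8.

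Hmgcs1, which makes HMG-CoA at the entry to the mevalonate steps, stood at 218, 258 and 262 CPM in the 3 G34R animals. It stood at 285, 253 and 259 CPM in the G34V animals and at 264 and 267 CPM in the G34W animals. In the 6 WT animals it ran from 296 to 369.5 CPM with a median of 326. All 8 mutant animals lay below all 6 WT animals. The log2 fold change was -0.43 in G34R (SE 0.0769, edgeR adjusted p = 0.00204), -0.31 in G34V (SE 0.0765, adjusted p = 0.025) and -0.32 in G34W (SE 0.0889, adjusted p = 0.0851), so that it passed in G34R and G34V. Its call in G34V was lost without G34V replicate 2 (adjusted p = 0.145) and without G34V replicate 3 (adjusted p = 0.0966). The 3 comparisons share the WT animals.

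Of the other mevalonate genes none passed in any mutant group by edgeR. These were Acat2 (the thiolase that joins acetyl-CoA units), the kinases Mvk and Pmvk, the decarboxylase Mvd, the isomerase Idi1 and Fdps, which makes farnesyl diphosphate. Their log2 fold changes in G34R ran from -0.31 for Idi1 (adjusted p = 0.0645) to 0.08 for Pmvk (adjusted p = 0.586). Mvd ran from 13.3 to 16.4 CPM in the 8 mutants and from 14.9 to 19.5 CPM in WT, and Idi1 from 8.64 to 11.1 CPM in the mutants and from 10.7 to 13.2 CPM in WT. Mvd and Idi1 were below the WT median in 8 of 8 mutant animals, and Fdps in 5 of 8. Acat2 has a near copy, Acat3, so that its counts are uncertain.

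The sterol steps turn farnesyl diphosphate into cholesterol through squalene and lanosterol. Cyp51, the lanosterol demethylase, stood at 49.6, 54.4 and 53.5 CPM in G34R, at 60.4, 66.1 and 56.4 CPM in G34V, at 56.9 and 58.9 CPM in G34W, and at 62.6 to 76.6 CPM in WT (median 68.8). The G34R animals lay below all WT animals, and 1 G34V animal lay within the WT range. By edgeR it fell in G34R (-0.41 on the log2 scale, SE 0.069, adjusted p = 0.00117) and did not pass in G34V (-0.19, adjusted p = 0.161) or G34W (-0.26, adjusted p = 0.108).

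Msmo1, the sterol C4-methyl oxidase, stood at 57.2, 63.6 and 65.9 CPM in G34R, at 65.7, 65.6 and 66.3 CPM in G34V, at 70.3 and 68.0 CPM in G34W, and at 69.5 to 81.0 CPM in WT (median 77.4). Only 1 mutant animal, of G34W, reached the WT range. It fell in G34R (-0.31, SE 0.0569, edgeR adjusted p = 0.00259) and in G34V (-0.22, SE 0.0567, adjusted p = 0.0334), and in G34W the value was -0.15 (adjusted p = 0.242). The call in G34V was lost in 11 of 21 alternatives, among them without any 1 of the G34V animals and without WT replicates 1, 2, 4 or 5 in turn (adjusted p from 0.0569 to 0.133).

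Fdft1, squalene synthase, stood at 60.9, 62.3 and 61.7 CPM in G34R, at 68.3, 65.4 and 67.1 CPM in G34V, at 71.0 and 64.6 CPM in G34W, and at 69.5 to 82.5 CPM in WT (median 73.5). All mutants but 1 G34W animal lay below WT, and the gene fell in G34R (-0.28, SE 0.058, edgeR adjusted p = 0.00609). It shares 18.3% of its exon length with Ctsb on the opposite strand, and whether the counting used strand is not given in the sources used here. Ctsb itself had a log2 fold change of 0.09 in G34R (adjusted p = 0.478).

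Sqle, the squalene epoxidase, stood at 43.7, 47.5 and 49.4 CPM in G34R, at 46.1, 43.8 and 50 CPM in G34V and at 47.1 and 47.9 CPM in G34W, against 51.8 to 59.2 CPM in WT (median 52.9). Lss, which closes the sterol rings as lanosterol synthase, stood at 28.7, 31.2 and 30.1 CPM in G34R, at 30.5, 32.8 and 31.5 CPM in G34V and at 28.3 and 31.1 CPM in G34W, against 34.3 to 36.8 CPM in WT (median 35.3). For both genes all mutants lay below all WT animals. The log2 fold change in G34R was -0.21 for Sqle (SE 0.0598, edgeR adjusted p = 0.0462) and -0.25 for Lss (SE 0.0555, adjusted p = 0.0118). The call on Sqle was lost in 14 of 21 alternatives, where its adjusted p ran up to 0.246, and that on Lss in 5 of 21, up to 0.1. Leaving out 1 animal lost Sqle for any of the G34R animals and for WT replicates 1, 3, 4, 5 and 6, and lost Lss for G34R replicates 1 and 3.

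Sc5d, the desaturase of the last steps, fell in G34V (-0.22, SE 0.056, edgeR adjusted p = 0.03), with 37.3, 39.1 and 44.0 CPM in G34V, against 44.4 to 49.9 CPM in WT (median 46.6). Tm7sf2, a sterol C14 reductase, fell in G34W (-0.46, SE 0.0991, edgeR adjusted p = 0.0275), with 14.4 and 13.4 CPM in G34W, against 16.7 to 21.7 CPM in WT (median 18.8). Tm7sf2 shares 12.1% of its exon length with Vps51 on the same strand, whose log2 fold change in G34W was -0.15 (adjusted p = 0.229). The call on Sc5d was lost in 9 of 21 alternatives, among them without G34V replicates 1 or 2 and without WT replicates 1, 3 or 5 in turn (adjusted p from 0.0538 to 0.223), and that on Tm7sf2 in 8 of 20, among them without either G34W animal (adjusted p = 0.108 and 0.102). Sc5d also stood at 43.0, 42.7 and 43.3 CPM in G34R and at 42.6 and 41.1 CPM in G34W, and Tm7sf2 at 15.4, 16.0 and 15.8 CPM in G34R and at 16.5, 15.7 and 16.0 CPM in G34V. For both Sc5d and Tm7sf2 all 8 mutant animals lay below all 6 WT animals.

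The remaining sterol genes passed in none of the 3 comparisons with WT by edgeR. They were Nsdhl and Hsd17b7, which work with Msmo1 in removing methyl groups, the isomerase Ebp, the reductase Dhcr7 at the end of the pathway, and Lbr, the other C14 reductase. In G34R their log2 fold changes ran from -0.26 for Nsdhl (adjusted p = 0.0826) to -0.05 for Lbr (adjusted p = 0.79). Hsd17b7 and Dhcr7 were below the WT median in 8 of 8 mutants, Nsdhl and Ebp in 7 and Lbr in 6, with overlap of the WT range in each. Hsd17b7 stood at 22.5 to 24.9 CPM in the WT libraries of low mitochondrial share and at 21.2 to 22 CPM in those of high share. Within a set its value was -0.19 in G34R (edgeR adjusted p = 0.276), -0.09 in G34V (adjusted p = 0.732) and -0.17 in G34W (adjusted p = 0.529).

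**Figure D2:**
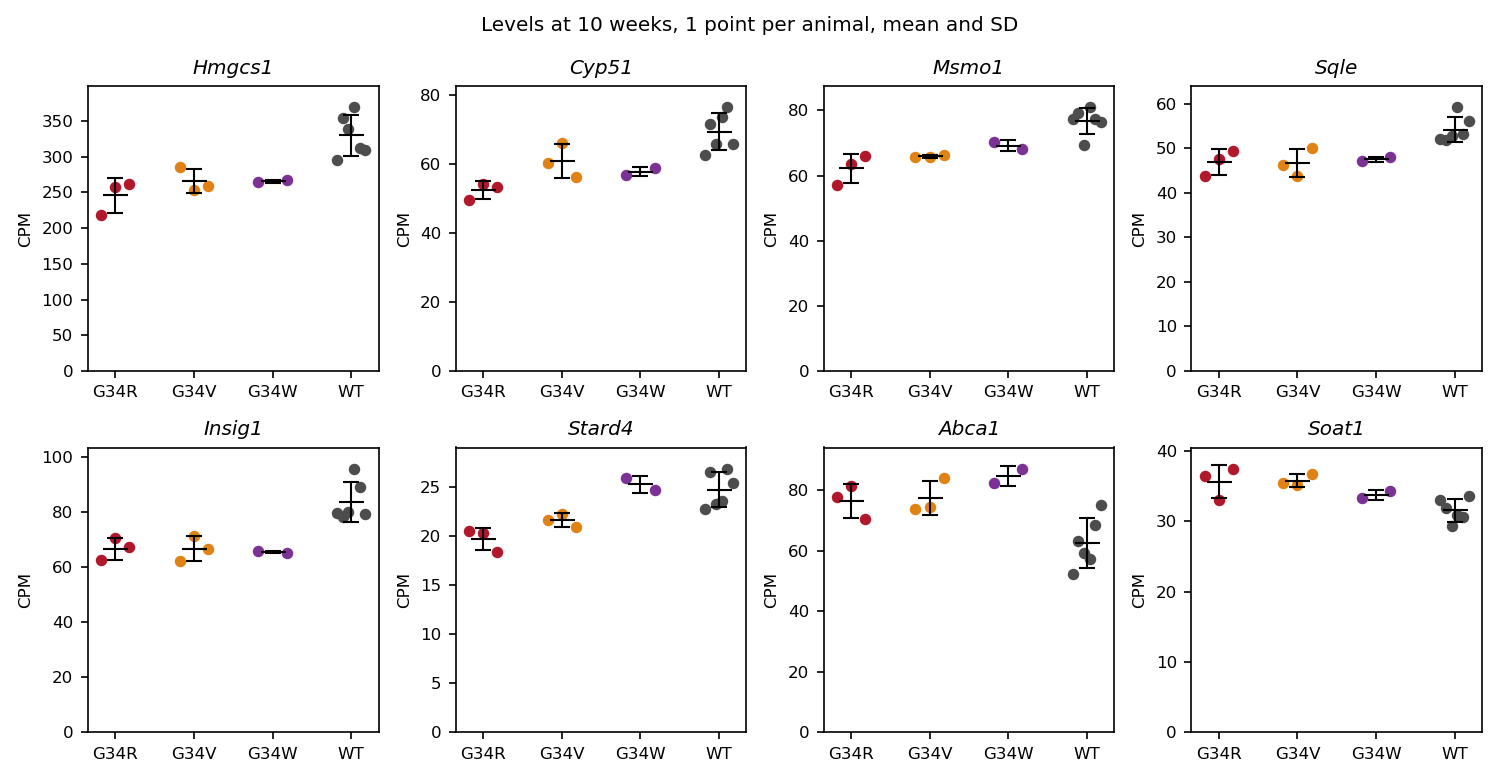
Levels in CPM at 10 weeks of 8 members, with 1 point per animal, the mean as a dash and the SD as bars, for G34R (n = 3), G34V (n = 3), G34W (n = 2) and WT (n = 6). Hmgcs1, Sqle and Insig1 show all mutants below all WT animals, while Abca1 and Soat1 lie higher in the mutants with overlap.

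In G34V 5 of 33 members fell and 0 rose by edgeR, where 2.67% of all genes fell and 1.57% rose. They were Hmgcs1, Msmo1, Sc5d, Insig1 and Nr1h3. All G34V animals lay below all WT animals for 10 members and above them for 1, where 5.9% of all genes lay below and 4.31% above. The count was 1 without G34V replicate 2, 2 without G34V replicate 1, and 3 without G34V replicate 3 and without WT replicates 1, 3 or 5. The synthesis genes had 3 of 19 lower, a median of -0.18 and 18 of 19 below 0, where the median of all genes was 0.01. In G34W 2 members fell (Tm7sf2 and Insig1) and 1 rose (Abca1), where 1.07% of all genes fell and 0.568% rose. The synthesis genes there had 1 of 19 lower, a median of -0.19 and 17 of 19 below 0. Both G34W animals lay below all WT animals for 11 members and above them for 1, where 8.86% of all genes lay below and 7.53% above. The count was 0 without G34W replicate 1, 1 without G34W replicate 2 and 1 without WT replicate 1.

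Compared directly, G34R and G34V differed in 0 of 33 members by edgeR, where 0.23% of all genes did. At an unadjusted p under 0.05 there were 5 members, where 10.9% of all genes passed, and DESeq2 and limma-voom called 0. G34V and G34W also differed in 0 members, where 0.15% of all genes did, with 3 members at an unadjusted p under 0.05, where 11.7% of all genes passed, and 0 by both other tools. G34R and G34W differed in Stard4 (-0.36, SE 0.0887, edgeR adjusted p = 0.049), where 0.935% of all genes were lower in G34R. That call was lost without any 1 of the 5 animals (adjusted p from 0.0808 to 0.158), and the value was -0.12 with the library sets as a block (adjusted p = 0.818).

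Animal by animal, the mean log2 difference of the 19 synthesis genes from the WT mean was -0.24, -0.158 and -0.138 in G34R, -0.162, -0.174 and -0.135 in G34V, and -0.182 and -0.18 in G34W. In WT it ran from -0.044 to 0.068. No mutant animal reached the WT range. Gene by gene, all 8 mutant animals lay below all 6 WT animals for Hmgcs1, Sqle, Lss, Tm7sf2, Sc5d and Insig1, which is 6 of 33 members, where 1.63% of all genes did so. All 8 lay above WT for 0 members, where 0.77% of all genes did so.

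The same mean over the 6 LXR and efflux genes ran from -0.024 to 0.149 in G34R, from -0.079 to 0.014 in G34V and up to 0.028 in G34W, against -0.022 to 0.031 in WT, with overlap in each case. Summed over the pumps Abca1, Abcg1 and Abcg4, the level was 177 to 199 CPM in G34R, 179.9 to 190.4 CPM in G34V and 183 and 191 CPM in G34W, against 169 to 185 CPM in WT.

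**Figure D3:**
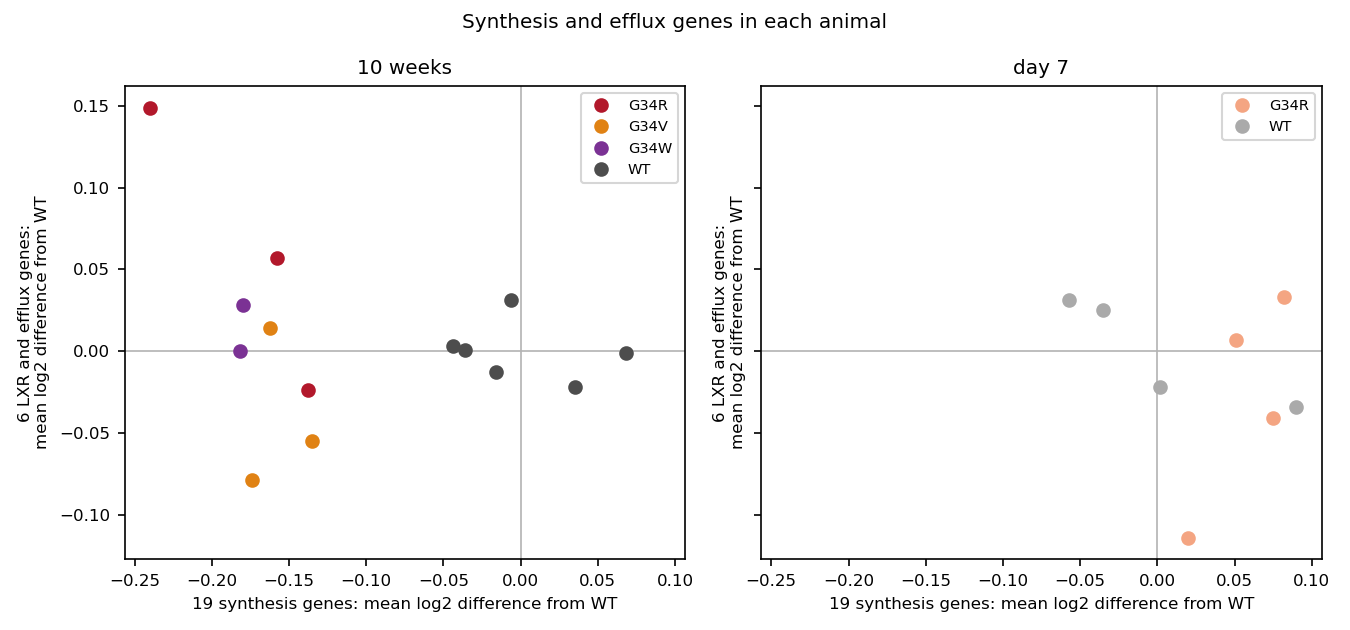
Each point is 1 animal: the mean log2(CPM + 0.5) difference from the WT mean of the same age over 19 synthesis genes (horizontal) and over 6 LXR and efflux genes (vertical). At 10 weeks the 8 mutants lie between -0.24 and -0.135 on the horizontal axis, left of the WT range of -0.044 to 0.068, and the groups overlap on the vertical axis and at day 7.

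Among the genes of SREBP control Insig1, which holds the Scap and SREBP complex back and is itself a target of SREBP, was lower in all 3 mutant groups. It stood at 62.5, 70.5 and 67.2 CPM in G34R, at 62.2, 71.4 and 66.6 CPM in G34V, and at 65.8 and 65.3 CPM in G34W, against 78.1 to 95.8 CPM in WT (median 79.8). The groups did not overlap. On the log2 scale the difference was -0.33 in G34R (SE 0.0696, edgeR adjusted p = 0.00741), -0.33 in G34V (SE 0.0697, adjusted p = 0.0103) and -0.36 in G34W (SE 0.0815, adjusted p = 0.0365). Without G34R replicate 1 the value in G34R was -0.28 (adjusted p = 0.0659), and without G34V replicate 1 the value in G34V was -0.28 (adjusted p = 0.0996). Over 21 alternatives the call in G34V was lost in 2, with adjusted p up to 0.128. The call in G34W was lost in 10 of 20 alternatives, among them without either G34W animal and without WT replicates 1 or 5 (adjusted p from 0.052 to 0.155).

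The transcription factors themselves did not pass by edgeR. Srebf2, the main driver of cholesterol synthesis, stood at 122, 107 and 108 CPM in G34R (-0.17, adjusted p = 0.203), at 131, 121 and 109 CPM in G34V, and at 119 and 133 CPM in G34W, against 120 to 138 CPM in WT (median 122). Srebf1, which favours fatty acid genes, stood at 57.3, 55.9 and 54.2 CPM in G34R (-0.14, adjusted p = 0.238), at 54.1, 53.1 and 57.8 CPM in G34V, and at 60.4 and 49.0 CPM in G34W, against 57.4 to 65.5 CPM in WT (median 61.4). The G34R animals lay below all WT animals for Srebf1 and overlapped them for Srebf2.

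Scap, the escort of SREBP, stood at 104, 93.0 and 100 CPM in G34R, at 98.9, 87.1 and 90.4 CPM in G34V, and at 83.7 and 97.9 CPM in G34W, against 81.4 to 95.8 CPM in WT (median 91.3). Insig2, the second Insig, stood at 37.2, 32.0 and 34.7 CPM in G34R, at 41.4, 37.5 and 39.1 CPM in G34V, and at 36.6 and 35.9 CPM in G34W, against 33.7 to 37.8 CPM in WT (median 36.3). Neither gene passed, and the mutant and WT ranges overlapped for each.

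Stard4, which carries cholesterol between membranes, stood at 20.5, 20.3 and 18.4 CPM in G34R, at 21.7, 22.3 and 20.9 CPM in G34V, and at 25.9 and 24.7 CPM in G34W, against 22.8 to 26.9 CPM in WT (median 24.5). The G34R and G34V animals lay below all WT animals. It fell in G34R (-0.33, SE 0.0694, edgeR adjusted p = 0.00716). The gene stood at 20.3 to 23.5 CPM in the WT libraries of low mitochondrial share and at 25.4 to 26.9 CPM in those of high share. Within the low set the G34R value was -0.17 (edgeR adjusted p = 0.316), and within the high set, where the G34V animals are, the G34V value was -0.28 (adjusted p = 0.0432), against -0.19 over all animals (adjusted p = 0.147). Without G34R replicate 3 the G34R value was -0.27 (adjusted p = 0.0689).

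Soat1, which esterifies cholesterol for storage, stood at 36.4, 33 and 37.5 CPM in G34R, at 35.4, 35.1 and 36.8 CPM in G34V, and at 33.3 and 34.3 CPM in G34W, against 29.3 to 33.6 CPM in WT (median 31.4). Of the 8 mutant animals 6 lay above all WT animals, all of G34V included. It did not pass by edgeR in G34R (0.17, adjusted p = 0.101), G34V (0.18, adjusted p = 0.103) or G34W (0.10, adjusted p = 0.485).

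On the side of efflux Abca1, the pump that loads cholesterol onto apolipoproteins, stood at 77.8, 81.2 and 70.4 CPM in G34R, at 73.9, 74.5 and 83.9 CPM in G34V, and at 82.4 and 87.1 CPM in G34W, against 52.2 to 75.0 CPM in WT (median 61.2). All mutant animals lay above the WT median, and 5 of 8 above every WT animal. Over all animals the log2 fold change was 0.29 in G34R (SE 0.0896, edgeR adjusted p = 0.0741), 0.31 in G34V (SE 0.0896, adjusted p = 0.0638) and 0.44 in G34W (SE 0.102, adjusted p = 0.0422).

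Abca1 was the member that differed most between the 2 libraries of the same WT animal, at 51.1 CPM in its library of low mitochondrial share and 66.7 CPM in the other. The WT libraries of the low set ran from 51.1 to 57.0 CPM and those of the high set from 63.0 to 74.8 CPM. Within the low set Abca1 was higher in G34R by 0.52 (SE 0.0645, edgeR adjusted p = 0.00117). Within the high set the values were 0.18 in G34V (adjusted p = 0.266) and 0.31 in G34W (adjusted p = 0.132). The G34R value passed in 5 of 21 alternatives, among them the library sets as a block (0.51, SE 0.0746, edgeR adjusted p = 0.0003), DESeq2 (adjusted p = 0.0398) and without WT replicate 6 (0.35, edgeR adjusted p = 0.0135). The G34V value passed in 2 of 21, with DESeq2 and without WT replicate 6 (0.37, edgeR adjusted p = 0.012). The call in G34W was lost in 13 of 20 alternatives, among them without either G34W animal and without WT replicates 1, 2, 3 or 4 in turn (adjusted p from 0.0514 to 0.16). The difference between G34R and G34V with the sets as a block was 0.33 (SE 0.102, edgeR adjusted p = 0.434). The fits with that block took the 2 libraries of the same WT animal as 2 replicates.

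Between the 2 libraries of the same WT animal the synthesis genes had a median log2 ratio of 0.02, and Hmgcs1 stood at 339 CPM in the library of low share and 338 CPM in the other. Within the low set Hmgcs1 (-0.43, edgeR adjusted p = 0.0378), Cyp51 (-0.34, adjusted p = 0.0204), Msmo1 (-0.30, adjusted p = 0.0273), Fdft1 (-0.33, adjusted p = 0.00454) and Insig1 (-0.35, adjusted p = 0.0251) fell in G34R, and Lss (-0.21, adjusted p = 0.1) and Sqle (-0.20, adjusted p = 0.141) did not pass. Within the high set Hmgcs1 (-0.31, adjusted p = 0.0287) and Insig1 (-0.28, adjusted p = 0.042) fell in G34V by edgeR, while Msmo1 (-0.19, adjusted p = 0.177), Sc5d (-0.20, adjusted p = 0.18) and Nr1h3 (-0.84, adjusted p = 0.0616) did not pass. In G34W 0 members passed there, with -0.39 for Tm7sf2 (edgeR adjusted p = 0.157) and -0.31 for Insig1 (adjusted p = 0.113).

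The other pumps did not pass. Abcg1, which passes cholesterol to lipoproteins, stood at 82.7, 89.7 and 79.4 CPM in G34R, at 84.4, 79.5 and 78.9 CPM in G34V, and at 71.9 and 74.2 CPM in G34W, against 69.9 to 87.6 CPM in WT (median 82.5). Abcg4, its close relative in neurons and glia, stood at 33.3, 27.8 and 26.9 CPM in G34R, at 30.9, 26.0 and 27.5 CPM in G34V, and at 28.7 and 29.7 CPM in G34W, against 28.0 to 34.7 CPM in WT (median 29.3). Both overlapped WT in every group and had an edgeR adjusted p of 0.45 or more.

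Of the receptors Nr1h2 (LXR beta) stood at 30.2, 30.7 and 26.4 CPM in G34R, at 26.8, 28.8 and 28.1 CPM in G34V, and at 27.8 and 26.2 CPM in G34W, against 26.2 to 29.0 CPM in WT (median 27.1), and did not pass. Nr1h3 (LXR alpha) was the least abundant member, with 30 to 173 counts per animal. It stood at 2.16, 1.47 and 1.38 CPM in G34R, at 1.5, 1.03 and 1.0 CPM in G34V, and at 1.91 and 1.71 CPM in G34W, against 1.83 to 2.4 CPM in WT (median 2.02). It fell in G34V (-0.80, SE 0.2, edgeR adjusted p = 0.0298). The G34V animals lay below all WT animals, but the call was lost in 6 of 21 alternatives. Among them were the fits without G34V replicate 2 (-0.71, adjusted p = 0.153), without G34V replicate 3 (-0.70, adjusted p = 0.135), without WT replicate 3 (-0.79, adjusted p = 0.0541) and without WT replicate 6 (-0.75, adjusted p = 0.0527), and that of the high library set given above, all by edgeR.

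Mylip, the LXR target that marks lipoprotein receptors for degradation, stood at 16.8, 16.0 and 18.8 CPM in G34R, at 15.9, 16.4 and 16.0 CPM in G34V, and at 13.5 and 15.6 CPM in G34W, against 13.2 to 18.2 CPM in WT (median 14.6). Cyp46a1, the neuronal hydroxylase through which the brain sheds cholesterol, stood at 119, 110.3 and 119 CPM in G34R, at 124, 109.8 and 117 CPM in G34V, and at 122 and 119 CPM in G34W, against 116 to 127 CPM in WT (median 121). Neither passed by edgeR, and over all animals the ranges overlapped. In the WT libraries of low and high mitochondrial share Mylip stood at 15.1 to 18.2 and 13.2 to 14.4 CPM, and Cyp46a1 at 125 to 133 and 112 to 119.5 CPM. All G34R animals lay below the low-share WT libraries for Cyp46a1, but the value within that set did not pass (-0.14, edgeR adjusted p = 0.202), and that of Mylip was 0.08 (adjusted p = 0.736). Within the high set Mylip was at 0.22 in G34V (edgeR adjusted p = 0.228) and 0.08 in G34W (adjusted p = 0.792), and Cyp46a1 at 0.01 (adjusted p = 0.977) and 0.05 (adjusted p = 0.8) in the same groups.

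**Figure D4:**
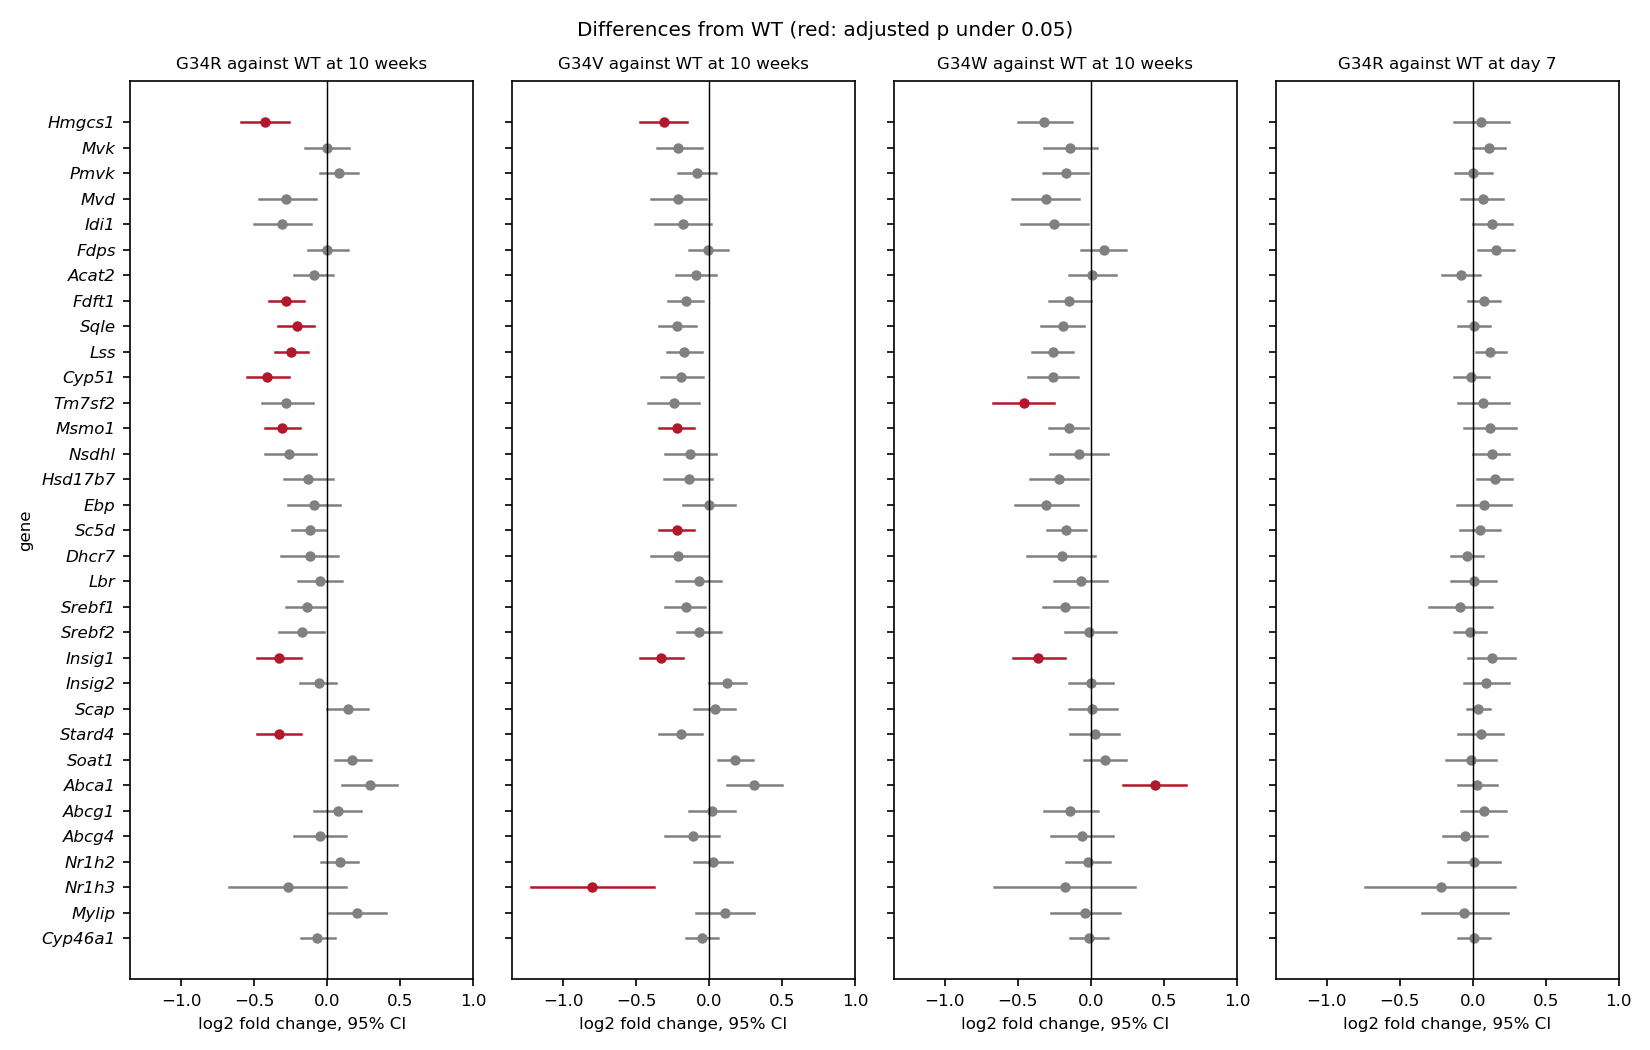
Log2 fold change against WT with its 95% confidence interval for the 33 members, for G34R, G34V and G34W at 10 weeks and G34R at day 7, with members past an edgeR adjusted p of 0.05 in red. Insig1 is red in all 3 mutant groups at 10 weeks, and no member is red at day 7.

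At day 7 no sterol gene passed the test in G34R cortex. By edgeR 0 of 33 members passed (and 0 by DESeq2 and by limma-voom), where 0.308% of all genes passed. At an unadjusted p under 0.05 there were 4 members, all higher, where 7.74% of all genes passed. The synthesis genes had a median log2 fold change of 0.07, against 0.00 for all genes, and 3 of 19 were below 0. Hmgcs1 stood at 1229, 1045, 1204 and 1260.3 CPM in G34R, against 1198, 1115, 983 and 1276 CPM in WT. Insig1 stood at 89.8, 72.8, 83.3 and 84.9 CPM in G34R, against 72.3, 83.3, 76.5 and 71.7 CPM in WT. Lss stood at 96.2, 88.0, 88.1 and 95.4 CPM in G34R, against 81.8, 88.5, 85.2 and 83.3 CPM in WT. All 3 genes overlapped between the groups, with 95% intervals of the log2 fold change from -0.13 to 0.25 for Hmgcs1 and from -0.03 to 0.29 for Insig1.

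The difference between ages was itself tested in a fit over all 22 animals. The G34R effect was lower at 10 weeks than at day 7 for 6 of 33 members by edgeR, where 0.597% of all genes were lower and 0.562% higher. The change in log2 fold change was -0.36 for Lss (SE 0.0686, adjusted p = 0.00624), -0.35 for Fdft1 (SE 0.0763, adjusted p = 0.0181), -0.45 for Insig1 (SE 0.101, adjusted p = 0.0262), -0.41 for Msmo1 (SE 0.0947, adjusted p = 0.0278), -0.39 for Cyp51 (SE 0.0899, adjusted p = 0.0308) and -0.47 for Hmgcs1 (SE 0.117, adjusted p = 0.0434). Of the LXR and efflux genes 0 of 6 passed, with a median of 0.04 and 0.26 for Abca1 (adjusted p = 0.407). Without G34R replicate 1 at 10 weeks 1 member passed, and without G34R replicates 1 and 4 at day 7 in turn 2 passed in each case. Without G34R replicates 2 and 3 at 10 weeks and WT replicate 1 at day 7 in turn 3 passed in each case. The member that passed without G34R replicate 1 at 10 weeks was Lss. Over 26 alternatives the call was lost in 0 for Lss, 2 for Fdft1, 4 for Msmo1, 6 for Insig1, 10 for Cyp51 and 15 for Hmgcs1.

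With age most synthesis genes of WT cortex fell. By edgeR 16 of 19 were lower at 10 weeks than at day 7 and 1 was higher, where 34.4% of all genes were lower and 33.3% higher, and the median was -1.26, against -0.01 for all genes. Hmgcs1 averaged 330.1 ± 28.7 CPM at 10 weeks (SD, n = 6) and 1143 ± 125 CPM at day 7 (SD, n = 4), which is -1.79 on the log2 scale (SE 0.0742, adjusted p = 3.18e-16 by edgeR). Sqle averaged 54.2 ± 2.91 CPM at 10 weeks and 171 ± 11.8 CPM at day 7 (-1.66, SE 0.0517). All 7 mevalonate genes fell, from -0.86 for Pmvk to -1.79 for Hmgcs1. At both ages Hmgcs1 had the highest level per kilobase of exon among the members in WT, at 71.9 CPM per kilobase at 10 weeks and 249 CPM per kilobase at day 7.

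The late sterol genes were uneven. Dhcr7 (-1.55) and Nsdhl (-1.55) fell about as far as the mevalonate genes, Msmo1 fell by 0.14 on the log2 scale (adjusted p = 0.043), Sc5d (-0.06, adjusted p = 0.296) and Lbr (-0.12, adjusted p = 0.108) did not pass, and Ebp rose (0.47, adjusted p = 6.22e-06), all by edgeR. Among the control genes Insig2 rose by 1.12 and Srebf1 by 0.51, Srebf2 fell by 0.27 and Scap by 0.19, and Insig1 was at 0.14 (adjusted p = 0.0628).

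Efflux and turnover genes split. Over all genes 33.3% were higher and 34.4% lower with age, so the split is not read as particular to these genes. Abcg1 averaged 80.0 ± 8.11 CPM at 10 weeks and 18.8 ± 1.45 CPM at day 7 (2.09, SE 0.0704, edgeR adjusted p = 6.51e-18), and Cyp46a1 averaged 121 ± 4.55 CPM at 10 weeks and 45.7 ± 3.31 CPM at day 7 (1.41, SE 0.0529, adjusted p = 4.37e-17). The receptors Nr1h3 (0.99) and Nr1h2 (0.44) and the esterifying enzyme Soat1 (0.44) also rose. In the other direction Abca1 fell by 0.95, Mylip by 0.82, Stard4 by 0.71 and Abcg4 by 0.26. Age cannot be told apart from the preparation of the libraries, since each age has its own libraries.

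**Figure D5:**
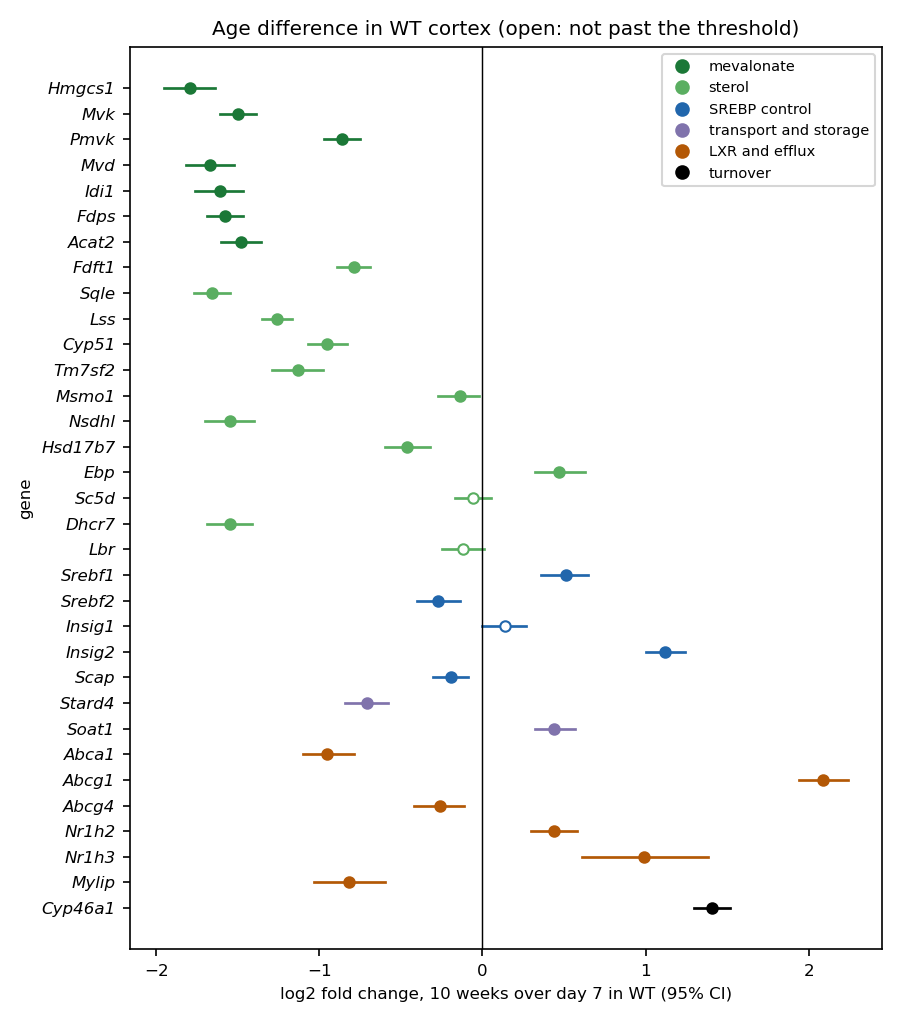
Log2 fold change of the 33 members in WT cortex, 10 weeks (n = 6) over day 7 (n = 4), with 95% confidence intervals, coloured by role and open where the edgeR adjusted p was above 0.05. The mevalonate genes lie between -1.79 and -0.86, while Abcg1 (2.09) and Cyp46a1 (1.41) lie on the other side.

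Fatty acid genes that SREBP also controls were lower in part. Of 19 such genes 4 fell in G34R, 3 in G34V and 1 in G34W, and 0 rose in any of them by edgeR, with medians of -0.06 in G34R, -0.06 in G34V and -0.09 in G34W. Over all genes 2.63% fell in G34R, 2.67% in G34V and 1.07% in G34W. Scd1, a stearoyl-CoA desaturase, averaged 98.1 CPM in G34R, 95.8 CPM in G34V and 95.6 CPM in G34W, against 149 CPM in WT. Its log2 fold change was -0.61 in G34R (edgeR adjusted p = 0.00157), -0.64 in G34V (adjusted p = 0.00164) and -0.64 in G34W (adjusted p = 0.0162). Acss2, which makes acetyl-CoA from acetate, fell in G34R (-0.27) and G34V (-0.26), as did Scd2 (-0.25 in each), and Acsl3 fell in G34R (-0.21). At day 7 0 of 19 passed by edgeR, with a median of -0.06.

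Of 13 further LXR targets tested 1 rose and 3 fell in G34R, 3 fell in G34V and 2 fell in G34W, with medians of -0.07 in G34R, -0.07 in G34V and -0.18 in G34W. Beside this list and the next, 2.92% of all genes rose and 2.63% fell in G34R, 2.67% fell in G34V and 1.07% fell in G34W. Scd1 and Scd2 also stand in the list of fatty acid genes. The LXR target that rose in G34R also stands in the list of further sterol genes that follows, and is counted in both. Smpdl3a, a phosphodiesterase, fell in G34R (-0.52, edgeR adjusted p = 0.00101) and in G34V (-0.46, adjusted p = 0.00402), and Nampt, of NAD synthesis, fell in G34W (-0.24, adjusted p = 0.0499). Of 37 further genes of sterol uptake, transport and oxidation tested, 3 rose and 4 fell in G34R, 3 fell in G34V and 0 passed in G34W. They included the apolipoprotein Clu, which rose in G34R (0.47, SE 0.0587, adjusted p = 5.22e-05), and the oxysterol hydroxylase Cyp7b1, which fell in G34V (-0.39, SE 0.0842, adjusted p = 0.0116).

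Markers of other cell types moved with the genotypes beside these results. The summed level of 16 myelin genes was 3893 to 4983 CPM in G34R, 3169.7 to 4182 CPM in G34V and 3445 and 5119 CPM in G34W, against 5019 to 6551 CPM in WT. By edgeR 0 of the 16 passed in G34R (median -0.26), 6 fell in G34V (median -0.51) and 3 fell in G34W (median -0.46). Beside these marker lists, 2.63% of all genes fell in G34R, 2.67% in G34V and 1.07% in G34W. The shares that rose were 2.92%, 1.57% and 0.568% in the same groups. The summed level of 8 microglial genes was 617 to 687 CPM in G34R, 447 to 556 CPM in G34V and 406 and 446 CPM in G34W, against 359 to 399.6 CPM in WT, and 7 of the 8 rose in G34R, 4 in G34V and 0 in G34W. Of a separate list of 8 markers of disease-associated microglia, the state taken on beside damage, 7 rose by edgeR in G34R (median 1.58), 6 in G34V (median 0.91) and 4 in G34W (median 0.60). In G34W Cst7, Itgax, Clec7a and Cd68 rose by 3.56, 2.31, 2.65 and 0.64 on the log2 scale. Cst7, Itgax and Clec7a were near the floor, averaging 0.538, 1.13 and 2.13 CPM in the 2 G34W animals. In WT they averaged 0.0417, 0.223 and 0.336 CPM. At day 7 the microglial genes of the first list, not those of the disease-associated list, summed to 184 to 214 CPM in G34R and 150.2 to 168 CPM in WT. Of these 8 genes 3 rose there by edgeR, namely Cx3cr1, P2ry12 and Itgam, where 0.308% of all genes passed. The summed level of 9 astrocyte genes was 3875 to 3892 CPM in G34R, 3827 to 3842 CPM in G34V and 4093 and 5011 CPM in G34W, against 3602 to 4311 CPM in WT. The mean log2 difference of these 9 from the WT mean was 0.185 to 0.273 in G34R and -0.099 to 0.082 in WT. It was 0.024 to 0.092 in G34V and 0.03 and 0.209 in G34W. All G34R animals lay above all WT animals for this mean, which includes Gfap. Even so, 3 to 4 of the 9 genes were below their own WT mean in each G34R animal, and the summed level lay within the WT range. By edgeR 1 of the 9 rose in G34R, 1 in G34V and 2 in G34W, with Gfap, the filament of reactive astrocytes, at 1.82, 0.84 and 0.51, and Slc4a4 at 0.41 in G34W. Of 9 neuronal markers 0 passed in any of the 3 groups by edgeR. Their mean log2 difference from the WT mean was -0.121 to -0.089 in G34R, against -0.08 to 0.095 in WT. All G34R animals thus lay below all WT animals for this mean, as for the summed level given above, while G34V and G34W overlapped WT. Neurod6, a transcription factor of excitatory cortical neurons that was picked from another list after its values were seen, fell in G34R (-0.35, edgeR adjusted p = 0.0385) and in G34W (-0.67, adjusted p = 0.00826). It did not pass in G34V. A gene picked this way does not stand for the other genes of its list, which are not reported here, or for these neurons. The summed level of 5 choroid plexus genes was 436 to 729.7 CPM in G34R, 238 to 1039 CPM in G34V and 13.7 and 199 CPM in G34W, against 149 to 932 CPM in WT. At day 7 the myelin genes summed to 219.7 to 281 CPM in G34R and 226 to 293 CPM in WT. In WT all 16 rose with age (median 4.30), where 33.3% of all genes rose, while most synthesis genes fell. The part of these cell types in the sterol results was not tested.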

How the data were processed

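RNA was sequenced after ribosomal depletion, per the labels' protocols. The authors deposited raw counts per Ensembl gene. Per the submitters' processing notes, the tools were featureCounts 1.4.4, STAR 2.3.0e, Trimmomatic 0.32 and bedtools 2.27.1, with the build mm10. The annotation version and whether counting used strand are not stated there, so reads of overlapping genes may be shared.

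The deposited counts were tested with edgeR 4.0.16 in R 4.3.3 (quasi-likelihood test, TMM scaling, filterByExpr), with p-values adjusted by Benjamini-Hochberg over all genes and a threshold of 0.05. At 10 weeks 1 fit held 14 animals (21288 genes), at day 7 another held 8 animals with sex as a covariate (20461 genes), and the last held all 22 animals (22432 genes). All 33 members passed the filter. CPM were set on 1 TMM scale, and 0.5 was added before taking log2. Animals were the replicates. Sets of libraries were divided at a mitochondrial share of 1.1%, chosen after seeing the data. Alternatives included DESeq2 1.42.0 and limma-voom (limma 3.58.1), other scalings and filters, a block and each animal left out. The fits were tested on simulated data with 200 changed genes. Per-animal values were given for members past a threshold and for all efflux and SREBP control members, the others by range, and at most 4 genes of each wider list and comparison were named. Members and lists were chosen with earlier results of these data known. Of the markers specific to the cortex 1 gene is given, and the others are not reported here.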

Additional observations from a re-analysis of the deposited data

Results flagged for a closer look

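The G34R effect differed between ages, by the test of the difference in edgeR, for 6 members, each lower at 10 weeks than at day 7. The log2 differences were -0.47 for Hmgcs1, -0.35 for Fdft1, -0.36 for Lss, -0.39 for Cyp51, -0.41 for Msmo1 and -0.45 for Insig1.

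Single animals stood apart from the rest of their group in 7 of 99 member and group pairs by Dixon's criterion, and chance flags about 1 in 20, here 5. Only WT at 10 weeks and both groups at day 7 were tested, and the mutant groups at 10 weeks were not. In WT at day 7, Pmvk was low in replicate 1 at 40.7 CPM, Sqle was high in replicate 2 at 189 CPM, Abcg1 was high in replicate 3 at 20.9 CPM and Mylip was low in replicate 3 at 23.2 CPM. In G34R at day 7, Hsd17b7 was low in replicate 4 at 32.4 CPM and Nr1h2 was low in replicate 2 at 16.9 CPM. In WT at 10 weeks, Hsd17b7 was high in replicate 4 at 24.9 CPM.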

How the results depend on the processing

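Of 5709 member values under the alternatives, 149 lost a call, 45 gained one and 0 called values reversed. Signs changed in 292 values of members past the threshold in neither setting, whose log2 value was at most 0.24 in size. In G34R against WT, 8 members passed, and 6 to 12 under other settings. Leaving out 1 animal gave 5 (without G34R replicate 1) to 9. Hmgcs1, Fdft1, Cyp51 and Msmo1 kept their calls under all 21 alternatives. In G34V, 5 members passed, against 8 with DESeq2, 1 with runs of animal numbers as a replicate block, 3 with libraries of high mitochondrial share only, and 1 (without G34V replicate 2) to 5 with 1 animal left out. In G34W, 3 passed, against 5 with DESeq2, 1 with the sex label as a covariate, 0 with limma-voom, 0 with only the groups compared, 0 with the replicate block, 0 with the library sets as a block, 0 with libraries of high mitochondrial share only, and 0 (without G34W replicate 1) to 3 with 1 animal left out. Between G34R and G34W 1 passed, and 0 with no filter, limma-voom, mitochondrial and rRNA genes left out, the twice-sequenced animal's libraries kept apart, only the groups compared, the sex label, the replicate block, the library sets as a block, or any animal left out. For the difference between ages 6 passed, and 1 (without G34R replicate 1 at 10 weeks) to 7 with 1 animal left out. For age in WT 30 passed, and 29 to 31 with 1 animal left out. With the replicate block Abca1 passed in G34R (0.475, edgeR adjusted p = 0.00502), and in G34V Insig1 (-0.25, adjusted p = 0.128) and Nr1h3 (-0.84, adjusted p = 0.117) did not. The causes were not tested. Runs of animal numbers are not stated to mark litters.

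The groups are small, and p-values measure the spread between animals, with the 2 G34W animals of different sex labels. A member that did not pass in groups of 2 to 4 mutants is not shown to be alike in both.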
